A study of Danio rerio with 4 samples.

Results

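The genes described here are 10 immediate early activity genes of the zebrafish brain: fosab, fosb, junba, junbb, ier2, egr1, egr3, egr4, npas4a and nr4a1. They were chosen by name as transcription factors and regulators that neurons switch on when they fire. All 10 are among the 31030 genes counted. Of these, 8 stand in the table under the listed name, and the other two were found by their NCBI gene number (fosab, listed as fos, and egr4, listed as zgc:175128). RNA was taken from whole brains of 4-month-old fish and sequenced in 4 libraries, 1 each for male atrn-/-, male wild-type, female atrn-/- and female wild-type fish. The gene atrn encodes attractin, a membrane protein with a role in the central nervous system, and the mutants come from the CRISPR/Cas9 line nju70. The study asked how loss of atrn alters behaviour and brain gene expression in each sex. Each group is thus 1 library, the number of brains in it is given differently in different parts of the paper, and no source used here states when in the day or how long after handling the brains were taken.

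Immediate early genes need no new protein for their induction. Calcium entry and kinase signalling in an active neuron act on factors already bound at these genes, such as SRF, its ELK partners and CREB, and their mRNA appears and decays quickly. In neuroscience the level of fos or egr1 mRNA is therefore a common marker of recent neuronal activity. The Fos and Jun proteins pair to form the AP-1 factor. The EGR proteins are zinc finger factors, Npas4 is a factor induced mainly by calcium in neurons, and the NR4A proteins are orphan nuclear receptors. Each then acts on a later set of genes for synapses, secreted factors and feedback.

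The 10 genes did not move as a block. In both sexes nr4a1, fosb and junba were lower in the mutant by more than counting error. In the male mutant junbb, ier2, egr1, egr4 and npas4a were slightly higher than in the male wild type, and no gene of the 10 was higher beyond counting error in the female mutant. The only gene of the 10 with opposite signs in the sexes beyond counting error in both was egr1. The sexes were then fitted together with edgeR's quasi-likelihood test, sex being a covariate and p-values being adjusted over the 19943 genes that averaged 10 counts or more. Of the 10, 0 passed the threshold of 0.05, where 0.211% of all genes did. At an unadjusted p under 0.05 there were 2, fosb and nr4a1, against 9.09% of all genes. DESeq2's Wald test in the same design called 1 of the 10, nr4a1 (adjusted p = 0.0493), and 96 of all genes, where edgeR's test called 42.

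Total counts were 16254750 and 16100263 in the male mutant and wild type, and 13116358 and 8654693 in the female mutant and wild type, so the female wild type was the shallowest library. The gene atrn itself had 462 counts in the male mutant, against 808 in its wild type, and 423 counts in the female mutant, against 662 in its wild type. The mutant-over-wild-type log2 ratio of atrn was -0.815 in males and -1.22 in females, in the direction of the labels. All 10 immediate early genes passed the filter, with mean counts between 364 for junba and 4820 for npas4a. Levels are given as CPM, the count scaled to the library's size with TMM factors, and since gene lengths were not used they are compared between libraries and not between genes. Within a sex, each log2 ratio carries the 95% interval of the counts, which covers counting error only. The dispersion shared by all genes corresponds to a standard deviation of 0.31 in the log2 ratio of 2 libraries, or 1.24-fold. With 1 library per group, it was estimated from how far the ratios differ between the sexes, and not from replicates. Markers of other cells differed between the brains: those of blood summed to 1105 CPM in the male mutant, against 3121 in the male wild type, and to 1114 CPM in the female mutant, against 2213 in the female wild type. Skeletal muscle markers summed to 136 CPM in the male mutant, against 265 in the male wild type, and to 677 CPM in the female mutant, against 5074 in the female wild type, with 3 of them, tnnt3a, tnni2a.4 and smyhc1, at 0 in a library. Neuron markers summed to between 11941 and 12829 CPM, but 6 of the 14 had opposite signs between the sexes beyond counting error. Of the radial glia markers, 6 of 10 were higher in mutants at an unadjusted p under 0.05.

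**Figure D1:**
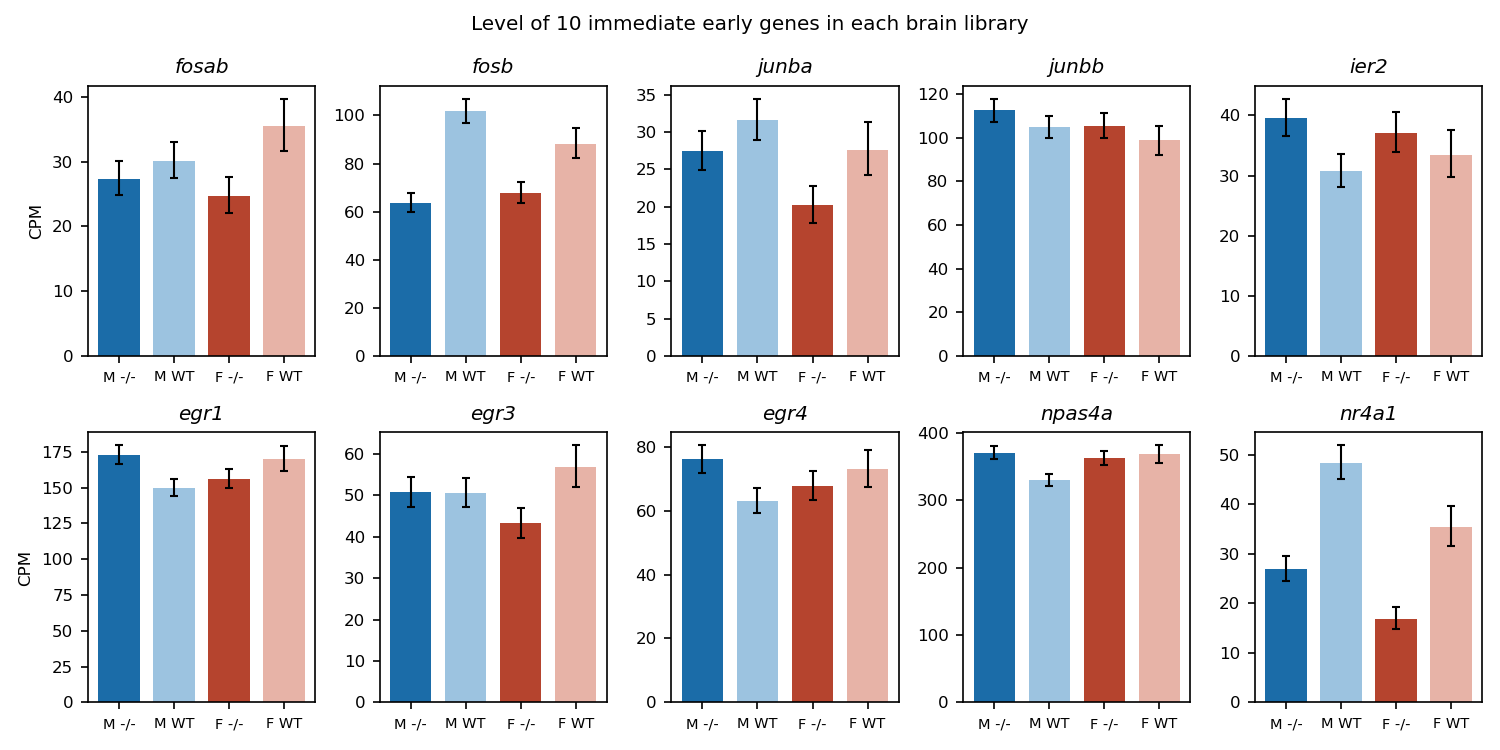
Level of each of the 10 genes in each library, in CPM, with 1 bar per library and the 95% counting interval as error bar. M and F stand for male and female, -/- for atrn-/- and WT for wild type. In nr4a1 both mutant bars, 27.0 and 16.9 CPM, lie below both wild-type bars, 48.4 and 35.5 CPM, while in npas4a all 4 lie between 331 and 371 CPM.

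Fos proteins do not pair with each other and bind DNA with a Jun partner. fosab, the classical activity marker c-fos, had 27.4 CPM (441 counts) in the male mutant, against 30.1 CPM (482 counts) in the male wild type. In females it had 24.7 CPM (324 counts) in the mutant, against 35.5 CPM (312 counts) in the wild type. Both mutants were below both wild types, but the gap in males lay within counting error. The log2 ratio was -0.14 in males (95% interval -0.33 to 0.049) and -0.52 in females (-0.75 to -0.29). With the sexes fitted together its log2 fold change was -0.33 (SE, the standard error, 0.16, adjusted p = 0.602).

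fosb encodes the partner known in rodents for a stable splice form, ΔFosB, that builds up with repeated stimulation. It had 63.6 CPM (1025 counts) in the male mutant, against 102 CPM (1629 counts) in the male wild type. In females it had 67.8 CPM (889 counts) in the mutant, against 88.3 CPM (776 counts) in the wild type. The 2 mutant levels lay close together and both below the wild types. Its log2 ratio came to -0.68 in males (-0.79 to -0.57) and -0.38 in females (-0.52 to -0.24), so that the gap was wider in males by 0.30 on the log2 scale (0.12 to 0.48, counting error only). With the sexes together it had a log2 fold change of -0.53 (SE 0.13, adjusted p = 0.264), lower in 2 of 2 mutants, and the adjusted p lay between 0.0693 and 0.936 over the alternatives tried.

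The Jun partners split. junba and junbb are duplicate copies of the gene of JunB, which in mammals can restrain c-Jun. junba had 27.5 CPM (443 counts) in the male mutant, against 31.6 CPM (505 counts) in the male wild type, and 20.2 CPM (265 counts) in the female mutant, against 27.7 CPM (243 counts) in the female wild type. The male mutant and the female wild type were at nearly the same level. Its log2 ratio was -0.20 in males (-0.39 to -0.014) and -0.45 in females (-0.71 to -0.20), and over both sexes -0.32 (SE 0.16, adjusted p = 0.599). Fits with 1 library left out also drop sex, so that the sexes are then unequal between the genotypes. They gave -0.11 without the female mutant, -0.55 without the male mutant and -0.21 without the male wild type. Its copy junbb had 112 CPM (1813 counts) in the male mutant, against 105 CPM (1678 counts) in the male wild type, and 105 CPM (1382 counts) in the female mutant, against 98.7 CPM (867 counts) in the female wild type. Here both ratios were close to 0, at 0.10 in males (0.0033 to 0.20) and 0.095 in females (-0.029 to 0.22), and with the sexes together it was 0.097 (SE 0.11, adjusted p = 0.838). How the counting treated reads that fit both copies is not given in the sources used here, so the split between junba and junbb is uncertain.

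ier2, a small nuclear regulator induced together with fos, was the gene of the 10 with the highest ratio in both sexes. It had 39.6 CPM (638 counts) in the male mutant, against 30.8 CPM (492 counts) in the male wild type. In females it had 37.1 CPM (487 counts) in the mutant, against 33.5 CPM (294 counts) in the wild type. Both mutants were above both wild types, though in females within counting error. In log2 terms the mutant stood at 0.36 in males (0.19 to 0.54) and 0.15 in females (-0.061 to 0.36), and over both sexes 0.26 (SE 0.14, adjusted p = 0.635).

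The EGR family held the gene with opposite signs between the sexes. egr1, also known as zif268, is used to map active neurons in fish and mammals. It had 173 CPM (2788 counts) in the male mutant, against 150 CPM (2397 counts) in the male wild type. In females it had 156 CPM (2046 counts) in the mutant, against 170 CPM (1495 counts) in the wild type. The mutant was thus higher in males and lower in females, with a log2 ratio of 0.21 in males (0.13 to 0.29) and -0.12 in females (-0.22 to -0.028). The female ratio minus the male ratio was -0.33 (-0.46 to -0.21). This difference has no residual degree of freedom and was not tested. Each of the 2 ratios is smaller than the standard deviation of 0.31 that the shared dispersion gives for a pair of libraries. Oligodendrocyte markers moved the same way, with a sum of 12662 CPM in the male mutant, against 10498 CPM in the male wild type, and 12210 CPM in the female mutant, against 14170 CPM in the female wild type. The sum of microglia and leukocyte markers did too, at 186 against 162 CPM in male mutant and wild type and 187 against 217 CPM in females. Of the 12 of these that passed the filter, however, 9 were above 0 in males and 6 in females. Opposite signs beyond counting error in both sexes were seen in 1 of them. Neuron markers summed the reverse way. Opposite signs in the direction of egr1, both beyond counting error, were seen in 2.68% of all genes. Among the 7284 genes as deeply counted as junba they were seen in 3.94%. Such signs were seen in 3 of the 10 oligodendrocyte markers (mbpa, mpz and olig2). The same held for 3 of the 14 neuron markers (slc17a6b, gad1b and nefla), while 3 others (snap25a, gap43 and eno2) went the reverse way. The part of these cells in the egr1 values was not tested. For slc17a6b, a glutamate transporter gene, the log2 ratio was 0.35 in males and -0.47 in females, and for eno2 it was -0.066 and 0.40.

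egr4, whose product lies in the same family and is induced together with egr1, had 76.0 CPM (1226 counts) in the male mutant, against 63.1 CPM (1010 counts) in the male wild type. In females it had 67.8 CPM (889 counts) in the mutant, against 73.0 CPM (641 counts) in the wild type. The order of the 4 libraries was that of egr1, but the female gap lay within counting error. The log2 ratio was 0.27 in males (0.15 to 0.39) and -0.11 in females (-0.25 to 0.043). egr3, which in mammals acts in muscle spindles as well as in neurons, had 50.7 CPM (817 counts) in the male mutant, against 50.6 CPM (809 counts) in the male wild type, and 43.3 CPM (567 counts) in the female mutant, against 56.8 CPM (499 counts) in the female wild type. The males were level, and the female mutant was the lowest library. Its log2 ratio was 0.0025 in males (-0.14 to 0.14) and -0.39 in females (-0.57 to -0.22). With the sexes together the log2 fold change was 0.042 for egr1, 0.084 for egr4 and -0.19 for egr3, with adjusted p = 0.949, 0.895 and 0.742 in that order.

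npas4a encodes Npas4, which in rodents is induced by calcium entry and shapes inhibitory synapses. It was the most deeply counted of the 10 and the one whose 4 libraries lay closest together. It had 371 CPM (5985 counts) in the male mutant, against 331 CPM (5288 counts) in the male wild type, and 364 CPM (4767 counts) in the female mutant, against 369 CPM (3241 counts) in the female wild type. Only the male wild type stood a little below the others. The log2 ratio was 0.17 in males (0.11 to 0.22) and -0.021 in females (-0.086 to 0.044), and over both sexes 0.073 (SE 0.10, adjusted p = 0.881). The highest of the 4 levels was 1.12 times the lowest, against 2.86 times in nr4a1.

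nr4a1 encodes Nur77, an orphan nuclear receptor induced by activity in neurons and by many signals in blood, vessel and endocrine cells. It had 27.0 CPM (435 counts) in the male mutant, against 48.4 CPM (774 counts) in the male wild type. In females it had 16.9 CPM (222 counts) in the mutant, against 35.5 CPM (312 counts) in the wild type. Both mutants lay below both wild types, with 0.559 of the wild-type level in males and 0.479 in females. Its log2 ratio came to -0.84 in males (-1.02 to -0.67) and -1.06 in females (-1.32 to -0.82), and the female ratio minus the male ratio was -0.22 (-0.52 to 0.078). With the sexes together it had a log2 fold change of -0.95 (SE 0.15, adjusted p = 0.0901), lower in 2 of 2 mutants, and nr4a1 ranked 62 by p among the 19943 genes. The call depended on the setting, with adjusted p = 0.00422 without a filter on low counts and a range of 0.00422 to 1.00 over the alternatives. In bulk tissue, fewer cells that express a gene and less RNA per cell cannot be told apart. Blood markers were lower in the same 2 mutants, with 10 of the 10 kept genes lower in both sexes and 8 called by the test. Skeletal muscle markers were lower too, with 14 of the 20 kept lower at an unadjusted p under 0.05 by that test. Endothelium markers summed higher in both mutants, at 242 against 194 CPM in males and 278 against 240 CPM in females. The part of these cells in the lower nr4a1 and fosb was not tested.

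**Figure D2:**
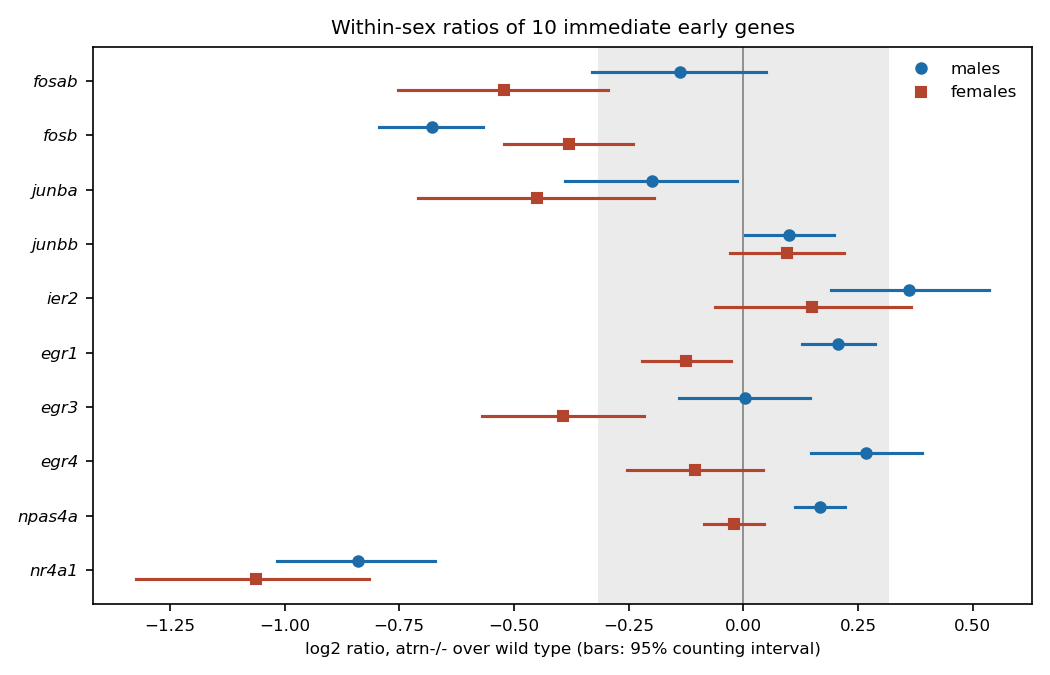
Log2 ratio of atrn-/- over wild type for the 10 genes, with a circle for males and a square for females. Bars are the 95% counting interval. The grey band spans 0.31 on either side of 0, the standard deviation that the shared dispersion gives for a ratio of 2 libraries. Both points of nr4a1 and of fosb lie left of the band, and the points of egr1 lie on opposite sides of 0 inside it.

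Set against all genes, the counts were as follows. In males 5 of the 10 had an interval above 0 (junbb, ier2, egr1, egr4 and npas4a), where 20.3% of all genes did, and 3 had one below 0 (fosb, junba and nr4a1), where 21.3% did. In females 0 of the 10 had an interval above 0 and 6 had one below 0 (fosab, fosb, junba, egr1, egr3 and nr4a1), where 18.4% of all genes did in either direction. A ratio of at least 1.5-fold was seen in males in 2, fosb and nr4a1, against 14.6% of all genes. In females it was seen in 1, nr4a1, against 18.8%. One of at least 2-fold was seen in 0 of the 10 in males, against 5.12%, and in females in 1, nr4a1, against 7.79%. Large ratios are rarer in deeply counted genes. The 7284 genes with at least the mean count of junba are a subset chosen after the data were seen. Among them a ratio of at least 1.5-fold was seen in 3.12% in males and 3.75% in females. One of at least 2-fold was seen in 0.783% and 1.08%. Intervals above and below 0 were seen there in 28.0% and 30.0% in males and in 29.0% and 20.8% in females. The median log2 ratio of the 10 was 0.051 in males, against -0.0070 over all genes, and -0.25 in females, against 0.0017.

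By direction, 3 of the 10 were below 0 in both sexes with both intervals excluding 0 (fosb, junba and nr4a1), against 6.25% of all genes, and 0 were above 0 in both, against 6.62%. Opposite signs of any size were seen in 4, egr1, egr3, egr4 and npas4a, against 43.6% of all genes, so that opposite signs as such were no more common among the 10. In these 4 the male mutant was the higher and the female mutant the lower, a direction found in 21.3% of all genes. With both intervals excluding 0, 1 of the 10 had opposite signs, egr1, against 5.94% of all genes, or 2.68% in that direction. The female ratio minus the male ratio had an interval excluding 0 in 6 (fosab, fosb, egr1, egr3, egr4 and npas4a), against 34.1% of all genes. It was negative in 5 of these and positive in fosb, and it was -0.38 in fosab, -0.39 in egr3, -0.37 in egr4 and -0.19 in npas4a. Its median size over the 10, 0.274, was close to the 0.282 of all genes. Counting intervals are narrower in deeply counted genes. Among the 7284 genes as deeply counted as junba, 48.7% had an interval of the difference excluding 0, 9.98% had opposite signs with both intervals excluding 0, and 9.60% were below 0 in both sexes with both excluding 0. The median size of the difference was 0.179 in them.

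**Figure D3:**
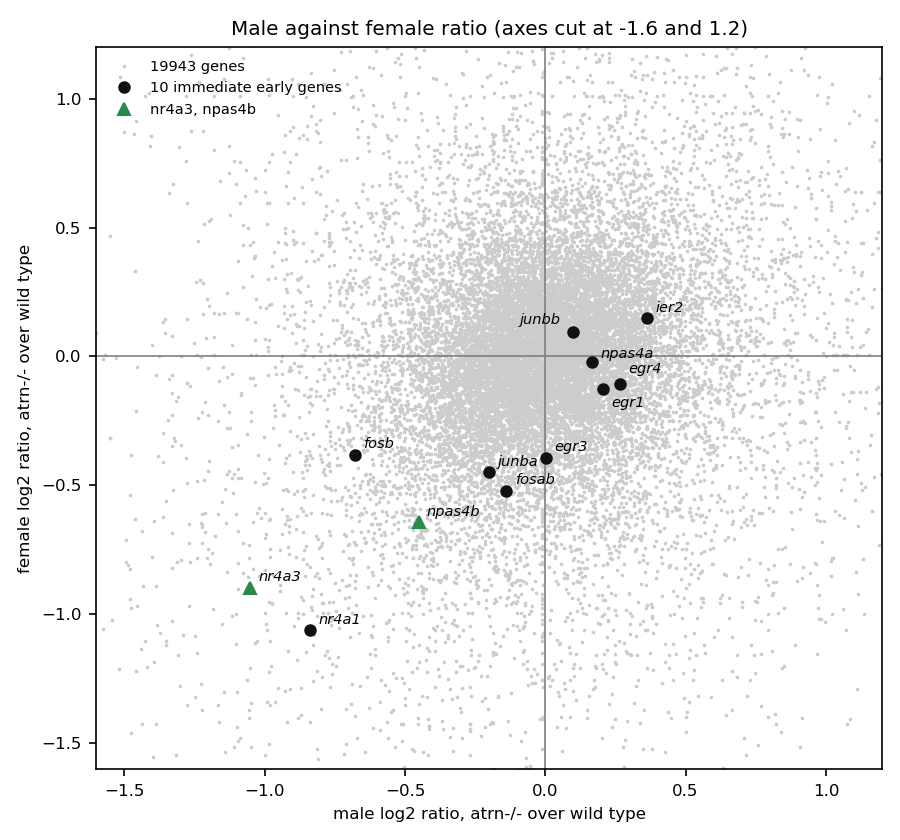
Log2 ratio of atrn-/- over wild type in males (horizontal) and in females (vertical) for the 19943 genes in grey, the 10 immediate early genes in black and their relatives nr4a3 and npas4b as triangles, with 1157 genes outside the axes. nr4a1, fosb, fosab, junba, nr4a3 and npas4b lie in the lower left, where both mutants were lower. egr1, egr4 and npas4a lie just right of the vertical line and just below the horizontal one.

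The sex difference itself was compared in the same 4 libraries, so it is not independent of the genotype ratios. By edgeR's test with genotype as a covariate, 0 of the 10 passed, where 0.140% of all genes did, and 1 had an unadjusted p under 0.05, nr4a1, against 7.60%. nr4a1 was lower in females in both genotypes, with a log2 ratio of female over male of -0.67 among mutants (-0.91 to -0.44) and -0.44 among wild types (-0.64 to -0.25), and -0.56 over both (SE 0.15, adjusted p = 0.501). Leaving out 1 library also drops genotype from the fit, so that the genotypes are then unequal between the sexes. The value over both was then -1.15 (female wild type left out), -0.90 (male mutant), -0.085 (female mutant) and -0.051 (male wild type). Since these fits mix sex with genotype, they cannot show whether the value rests on any single library. Among mutants 0 of the 10 had an interval above 0, where 17.9% of all genes did, and 5 had one below 0 (junba, egr1, egr3, egr4 and nr4a1), where 17.8% did. Among wild types 5 had one above 0 (fosab, egr1, egr3, egr4 and npas4a), where 19.3% did, and 2 had one below 0 (fosb and nr4a1), where 20.4% did. For the 7284 genes as deeply counted as junba, the shares above and below 0 were 24.7% and 24.4% among mutants. They were 22.1% and 32.2% among wild types. For egr1 the log2 ratio of female over male was -0.15 among mutants (-0.23 to -0.065) and 0.18 among wild types (0.089 to 0.28).

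By library, the 10 genes together had 968 CPM in the male mutant, against 942 CPM in the male wild type, and 903 CPM in the female mutant, against 988 CPM in the female wild type. The largest single part of these sums was npas4a. Without it the sum was 597 CPM in the male mutant, against 611 CPM in the male wild type. In females it was then 539 CPM in the mutant, against 619 CPM in the wild type. The male mutant was thus above its wild type only with npas4a included. The female mutant was the highest library for 0 of the 10, against 24.3% of all genes. It was the lowest for 4, egr3, fosab, junba and nr4a1, against 24.9%. The male mutant was the highest for 5, ier2, junbb, egr1, egr4 and npas4a, against 21.3%, and the lowest for 1, fosb, against 21.0%.

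Profiles over the 4 libraries were compared by the Euclidean distance of log2 CPM centred on each gene's mean, as a description. The pair closest together among the 27 members and relatives compared, a set put together after the data were seen, was egr1 and egr4, at 0.046, and the nearest to npas4a was egr1, at 0.091. The nearest to fosb was fosl2, at 0.15, and the nearest to nr4a1 was nr4a3, at 0.27. Among all other genes that averaged 50 counts or more, the nearest to the mean profile of the 10 were ap4e1 (0.019), a subunit of the AP-4 coat adaptor, fgd (0.020), add3b (0.022), an adducin of the membrane skeleton, papd5 (0.024), a poly(A) polymerase, and nup155 (0.031), a nuclear pore protein. The 10 genes themselves lay between 0.11 for egr3 and 0.90 for nr4a1 from their own mean. The genes named before them were picked as the nearest of all those compared. Their distances therefore cannot be set against those of the 10.

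Relatives of the 10 were then read from lists of their families. Of the NR4A and EGR relatives and the NAB corepressors, which bind EGR proteins and restrain them, 7 passed the filter and 1 was called, nr4a3. nr4a3 encodes NOR1, a receptor of the same family as Nur77. It had 42.5 CPM (685 counts) in the male mutant, against 88.2 CPM (1410 counts) in the male wild type, and 34.9 CPM (457 counts) in the female mutant, against 65.0 CPM (571 counts) in the female wild type. Both mutants lay below both wild types, as in nr4a1. nr4a3 fell by 0.98 on the log2 scale over both sexes (log2 ratio -1.05 in males and -0.90 in females, SE 0.12, adjusted p = 0.0426). This call was lost with DESeq2 size factors (adjusted p = 0.0545), without sex in the fit (0.252) and with any 1 of the 4 libraries left out (0.0973 to 0.627). The other NR4A genes were little counted, with log2 ratios of 0.22 in males and 0.071 in females for nr4a2a and 0.23 and -0.29 for nr4a2b, and so was egr2b, with 0.13 and -0.44. nab1b had 0.42 in males and 0.14 in females.

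Of the AP-1 relatives 11 of 13 listed passed the filter and 0 were called, and at an unadjusted p under 0.05 there were 2 lower and 1 higher in mutants. Of the 4 Fos relatives kept, fosaa and fosl2 were lower in both mutants. fosaa, the copy of fosab, had log2 ratios of -0.46 in males and -0.38 in females (adjusted p = 0.346), and fosl2, which encodes Fra-2, had -0.54 in males and -0.25 in females (adjusted p = 0.388). Among the Jun relatives, jun and jund stood on the other side of 0, with 0.39 in males and 0.29 in females for jun, which encodes c-Jun (adjusted p = 0.418), and 0.19 and 0.46 for jund, a factor with a steadier level (adjusted p = 0.551). atf3, a factor of the stress response to injury, had 13.6 CPM (220 counts) in the male mutant, against 13.8 CPM (221 counts) in the male wild type, and 34.3 CPM (450 counts) in the female mutant, against 10.4 CPM (91 counts) in the female wild type. A single library, the female mutant, stood apart here, and the log2 ratio was -0.018 in males and 1.71 in females (adjusted p = 0.574). The remaining Fos genes were little counted, fosl1a with 26 counts against 39 in the male mutant and wild type and 35 against 21 in the female pair, and fosl1b with 8 against 35 and 5 against 3. Neither was lower in the female mutant. The other extremes of the list were batf with -0.25 and -0.68, and jdp2a with 0.56 and 0.47 in males and females. The Jun relative june and fosl2l, added after values were seen, had -0.11 and -0.40 in males and -0.05 and -0.48 in females, in that order.

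npas4b, the copy of npas4a, was added after its values had been seen. It had 31.7 CPM (511 counts) in the male mutant, against 43.4 CPM (694 counts) in the male wild type, and 25.8 CPM (338 counts) in the female mutant, against 40.3 CPM (354 counts) in the female wild type. Unlike npas4a, its 2 mutants lay below its 2 wild types. The log2 ratio was -0.45 in males (-0.62 to -0.29) and -0.64 in females (-0.86 to -0.43), and over both sexes -0.55 (SE 0.14, adjusted p = 0.296).

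Other rapid response genes had medians near 0 as a list. Of 34 such genes listed, 28 passed the filter, 0 were called, and the median log2 ratio was 0.071 in males and 0.0025 in females. The lowest were mcl1a, an anti-apoptotic BCL2 relative, with -0.47 in males and -0.41 in females, and sik1, a kinase that feeds back on CREB signalling, with -0.33 and -0.50. The highest were klf2a, a zinc finger factor, with 0.32 and 0.33, and cyr61, a matrix protein gene, with 0.28 and 0.38. Neither end of the list passed the test, with adjusted p = 0.346 for mcl1a and 0.617 for klf2a.

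Of the delayed activity genes, which the early factors act on, 21 of 21 passed the filter and 0 were called, with 1 lower and 1 higher at an unadjusted p under 0.05. The median log2 ratio was -0.031 in males and 0.067 in females. rgs4, a brake on G protein signalling, had -0.22 in males and -0.48 in females, and plk2a, a kinase of synaptic scaling, had -0.14 and -0.28. inhbaa, an activin subunit, had 0.54 in males and 0.42 in females (adjusted p = 0.498), and ptgs2b, a cyclooxygenase, had no more than 21 counts in any library.

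Upstream, 30 of 31 kinases and factors passed the filter and 0 were called, with 0 lower and 2 higher at an unadjusted p under 0.05. The lowest were crema, of the CREB family, with log2 ratios of -0.65 in males and -0.14 in females, and crtc1b, a CREB coactivator, with -0.28 and -0.33. The highest were cremb, with 0.43 and 0.84, and creb1b, with 0.19 and 0.53. Heat shock and handling stress genes, listed because handling before death can induce them, gave 0 called of 13 kept, with a median log2 ratio of 0.0079 in males and -0.12 in females. At an unadjusted p under 0.05, 1 was lower in mutants, hsf1, with -0.25 in males and -0.37 in females. Opposite signs beyond counting error in both sexes were seen in 1, ddit3, with -0.30 in males and 0.50 in females. The extremes of that list, hsp90aa1.1, dnajb1b, serpinh1b and hspa1b, each had no more than 56 counts in any library.

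Some of the 10 overlap other genes in the RefSeq gene table of the assembly GRCz12tu, and whether the counting used strand is not given in the sources used here. fosab overlaps si:ch211-153j24.3, which had between 68 and 118 counts, and egr4 overlaps fhip1ab, with between 18 and 41 counts, and cyp17a2, with between 3 and 5 counts. junbb and npas4a each overlap a long non-coding RNA that was not analysed here.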

How the data were processed

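Brain RNA of 4 groups of zebrafish (1 library each, TruSeq kit) was sequenced. The authors deposited raw read counts per gene. The submitters' processing notes name HISAT2 and GRCz10, while the paper names MapSplice, RPKM and EB-Seq, and the annotation and counting program are not given in the sources used here. The deposited annotation columns served only for gene names and numbers, and 0 value columns stayed unmapped.

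From the counts, TMM factors (0.992 to 1.015) were computed in edgeR 4.0.16 (R 4.3.3), genes averaging 10 counts or more were retained (19943 of 31030), and log2 values used a prior count of 2. The common dispersion was 0.0238. Ratios within a sex, with 1 library on each side, carry exact Clopper-Pearson 95% counting intervals and no test. PCR reads are not independent molecules, and the intervals cover counting error only. Over both sexes, 2 mutant and 2 wild-type libraries were compared by edgeR's quasi-likelihood test with the other factor as covariate (1 residual degree of freedom) and Benjamini-Hochberg adjustment. Since nothing says what the libraries of a genotype share beyond the labels, p-values measure only the spread between these libraries. The fits were tested on simulated data. Alternatives were DESeq2 1.42.0 (size factors, Wald test), total counts, other filters and prior counts, no covariate, and each library left out.

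The members and lists were chosen with earlier results of these data known. Named were all 10 members, of each list the 2 highest and 2 lowest mean ratios and any called gene, the 5 nearest profiles, and atrn. npas4b, fosl2l and june, the other named relatives, hsf1, ddit3 and the distances among relatives were chosen after values were seen. So were the spread taken from the dispersion and the alternatives for nr4a3 and npas4b. Listed genes that were not matched in the table were not used here. Tables and figures were made with Python 3.11.15, numpy 2.4.6, pandas 2.3.3, scipy 1.17.1 and matplotlib 3.10.9.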

Additional observations from a re-analysis of the deposited data

Results flagged for a closer look

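The ratio of egr1 was flagged because the male mutant was higher and the female mutant lower, each beyond counting error. Opposite signs beyond counting error in both sexes were seen in 5.94% of all genes. Among the 7284 genes as deeply counted as junba they were seen in 9.98%. Both within-sex ratios of egr1 were smaller in size than the standard deviation of 0.31 that the shared dispersion gives for a pair of libraries. The mutant-over-wild-type log2 ratio was 0.21 in males and -0.12 in females, and the female ratio minus the male ratio was -0.331. The difference between the sexes was not tested, since 1 library per group leaves no residual degree of freedom for it.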

How the results depend on the processing

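Genotype calls over all genes were 42 and sex calls 28. Genotype calls came to 96 with DESeq2's Wald test, 273 without a filter on low counts, 5 without sex in the fit, and between 13 (without the female mutant) and 57 (without the male wild type) with 1 library left out, with 22 without the female wild type. Sex calls came to 117 without a filter, 1 without genotype in the fit, and between 1 (without either male library) and 97 (without the female mutant) with 1 library left out. These fits also drop the other factor, and the cause of the shifts was not tested. Of the members, nr4a1 passed with DESeq2's Wald test (log2 fold change -0.95) and without a filter (-0.95).

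With 1 library left out, the log2 fold change of genotype changed sign, ranging from -0.049 to 0.135 for egr1, -0.0203 to 0.188 for egr4 and -0.00612 to 0.152 for npas4a. That of sex ranged from -0.22 to 0.31 for fosab, -0.39 to 0.29 for fosb, -0.0843 to 0.122 for egr1, -0.23 to 0.17 for egr3, -0.11 to 0.16 for egr4, -0.0192 to 0.148 for npas4a and -0.16 to 0.20 for ier2. Without a change of sign, values of genotype moved by over 1.5 times in egr3 (-0.31 to -0.082), junbb (0.050 to 0.14), junba (-0.55 to -0.11) and fosab (-0.21 without the female wild type). Those of sex did so in junbb (-0.14 to -0.039), junba (-0.55 to -0.094) and nr4a1 (-1.15 to -0.051). The male median of the members stayed between 0.049 and 0.062 and the female median between -0.28 and -0.25 under other scalings, filters and prior counts, and the count of members with opposite signs beyond counting error was 1 under each. No paired analysis was possible because the labels give 1 library per group. No library could be left out of a within-sex ratio.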
